A study of Sus scrofa with 30 samples.

Results

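The high-numbered pig miRNAs of minipig plasma are described here. They are the rows of the deposited miRNA count table numbered from ssc-miR-4331 upward, without ssc-miR-4332. The rule used names only and no measured value, and it found 110 members among 411 rows. The small RNA of plasma was sequenced from 3 male Göttingen minipigs, 4 months old, which all received a total body irradiation (TBI) of 2.2 Gy, a lethal dose in this model. Plasma was drawn 7 days (C7) and 1 day (C1) before TBI, 6 h after it (0d), and at 7 later times named by day, of which 1d, 3d and 7d came first and then 10d, 14d, 17d and 20d. No unirradiated animals were part of the groups compared, so plasma drawn before TBI was the control. It was pooled over the 3 animals, and the main comparisons had no term for the animal. The paper states that the 3 animals did not survive. They were anesthetized for blood draws, were injected with dextrose after TBI and were given antibiotics when neutrophil counts were low. Time, repeated bleeding, this care and TBI cannot be told apart. C7 and C1 form the pre-TBI baseline (n = 6 libraries), and the study's phases are Early (0d to 7d, n = 10), Mid (10d and 14d, n = 4), Late (17d, n = 2) and LR or Late Regression (20d, n = 2).

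A miRNA is a short RNA that is cut from a hairpin precursor and guides silencing proteins to messenger RNAs. The hairpin has 2 sides, and each can yield a mature miRNA, named 5p or 3p after its arm. Cells release miRNAs into blood in vesicles and bound to proteins, and blood cells, the vessel wall and the liver are known sources of plasma miRNAs. Numbers are given to miRNAs in the order in which they are registered, so that high numbers mark late entries, and many of these were first described in pig. A high number alone does not show that a miRNA is particular to the pig lineage. The name miR-6782, for example, is also in use for a human miRNA. Conservation of the members was not examined here, and no function or target is given for a member.

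The 30 libraries held 6 with 0 to 17 counts, all of minipig 3 from 3d on, and these were left out. The other 24 libraries held 24341 to 550316 counts (median 240612), and minipig 3 is thus present at C7, C1, 0d and 1d only. Its pre-TBI libraries are part of the baseline for every phase. At Early it has libraries at 0d and 1d but none at 3d and 7d, and at Mid, Late and LR it has none. Minipig 1 at C7 and 17d and minipig 2 at 10d were below 50000 counts. ssc-miR-4332 made up 0.83% of the 17d library of minipig 1 and 8.01% to 20.2% of every other library, so this library stood apart. Of the miRNAs used as signs of blood cells, the summed red blood cell group (miR-451, miR-486, miR-144 and miR-16) ranged from 8786 to 99976 CPM, highest in minipig 2 at C7. miR-223, a defining miRNA of platelets and myeloid cells, was not among the rows used here, while the liver miRNA miR-122 had counts in every library. CPM are counts scaled to one common library total. Levels of members and of such groups are CPM after TMM scaling, which adjusts for libraries dominated by a few miRNAs. Levels are shares of the miRNA pool, so fewer releasing cells and less RNA released per cell cannot be told apart.

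The members were an ordinary part of the plasma pool in abundance. Together they took 14.6% (95% Wilson interval 14.4% to 14.9%) of the counts in minipig 2 at 17d, the lowest share, and 31.3% (30.8% to 31.8%) in minipig 2 at 10d, the highest. The median over the 24 libraries was 21.7%. Such intervals cover counting error only, because copies made by PCR were not separated. The mean share was 22.8% ± 3.36 (SD, n = 6) before TBI, 20.4% ± 1.99 (n = 10) at Early and 25.6% ± 4.03 (n = 4) at Mid. The shares of the remaining phases were 24.7% and 14.6% at Late and 20.6% and 23.5% at LR. The phase ranges overlapped the pre-TBI range of 18.6% to 27.3% at each phase. The median of the mean levels was 673 CPM for the members and 599 CPM for the other 301 rows. Of the 110 members, 106 had at least 1 count in all 24 libraries, 52 had at least 10 counts in all, and 24 had 3 counts or fewer in at least 1 library.

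The members fall into 4 blocks of numbers. The block miR-4331 to miR-4339 held 7 rows, with a median of 2235 CPM, from 173 CPM (miR-4337) to 4121 CPM (miR-4338). miR-6782-3p (4753 CPM) and miR-7857-3p (468 CPM) stood alone. The block miR-7134 to miR-7144 held 22 rows, both arms of all 11 hairpins, with a median of 483 CPM and a median 3.53% of a library. The block miR-9784 to miR-9862 held 79 rows, one for each of the 79 numbers, with a median of 637 CPM and a median 15.2% of a library. In RefSeq (Sscrofa11.1) 84 of the 98 numbers had a miRNA gene. For 42 numbers this gene lay within the span of a protein-coding gene, with strand not examined. miR-9828 had 3 gene copies, each within 10000 bases of another, and miR-9788 had 2, so their counts may combine copies.

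**Figure D1:**
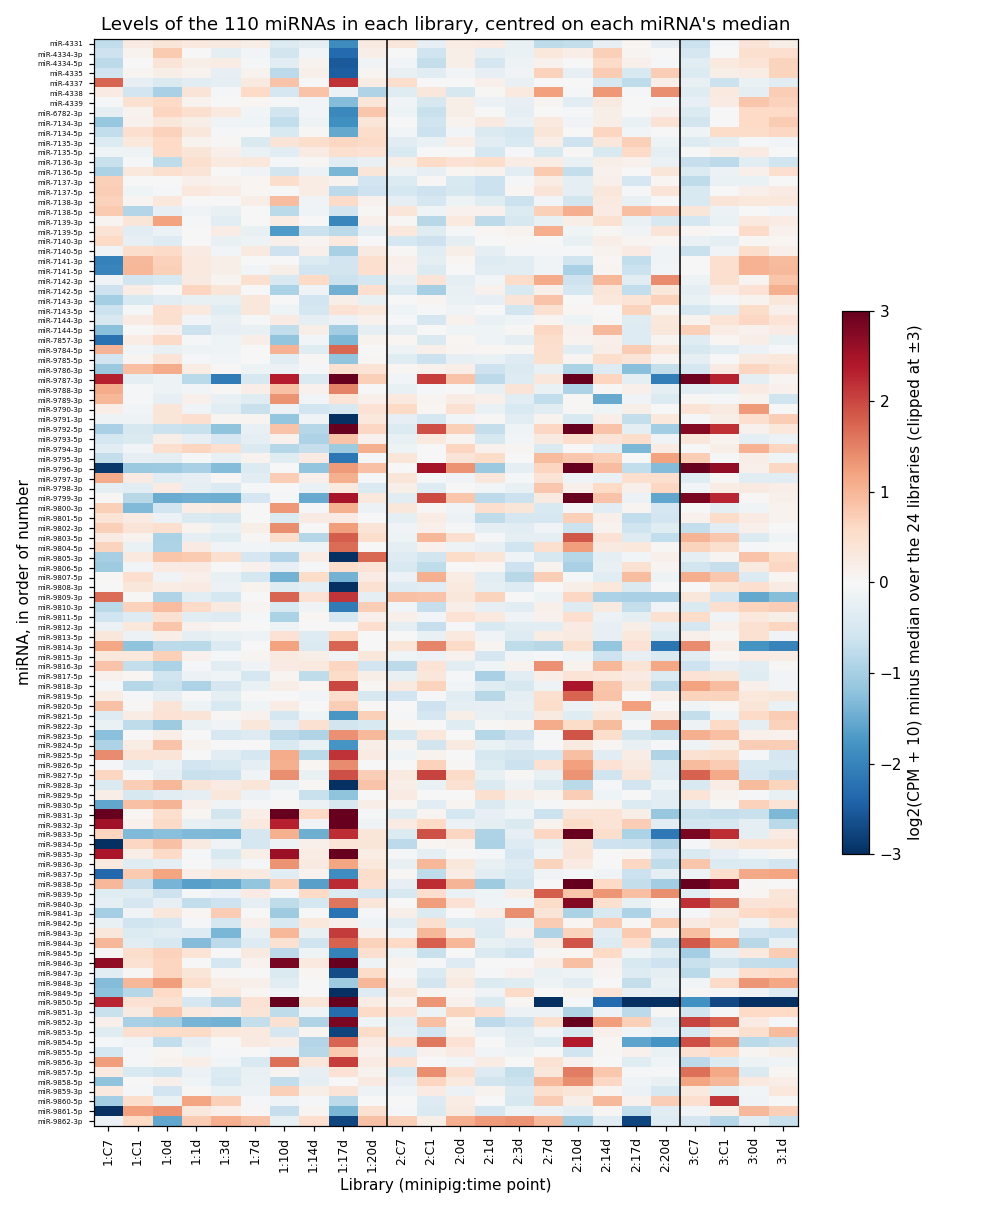
Level of each of the 110 miRNAs (rows, in order of number) in each of the 24 libraries (columns, minipig and time point, black lines between animals), as log2(CPM + 10) minus the miRNA's median over libraries. Minipig 1 at 17d shows the darkest column of blue and red cells, and one set of rows is red in minipig 2 at 10d and minipig 3 at C7 and C1.

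The members differed widely in how steady they were. The ratio of the highest to the lowest library had a median of 6.13 over members and ran from 1.95 for miR-9813-5p to 275 for miR-9850-5p. It was under 4 for 29 members and over 20 for 16. Even before TBI, the SD of log2 CPM over the 6 libraries ranged from 0.17 (miR-9794-3p) to 2.50 (miR-9796-3p). Its median was 0.51 for the members and 0.57 for the other rows. For 35 members the 6 pre-TBI libraries spanned over 2 on the log2 scale, and for 27 under 1. The library of minipig 1 at 17d gave the lowest level of 32 members and the highest of 19. Its 29159 counts and its low miR-4332 moved with these extremes, and their part in them was not tested.

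miR-9850-5p was the most abundant member and the row of rank 3 among the 411 (mean 34277 CPM), and its level differed between animals. In minipig 1 it took 8.78% and 2.50% of the counts at C7 and C1. It lay at 1.22% to 3.10% in the Early libraries and at 13.7% (95% Wilson interval 13.4% to 13.9%) at 10d. The 14d, 17d and 20d libraries had 3.15%, 12.6% and 2.09%. The 3 high time points of minipig 1 were its 3 smallest libraries. In minipig 2 it took 2.38% and 6.04% before TBI and 1.996% to 2.27% from 0d to 3d. It then stood at 0.23% at 7d and 2.50% at 10d, and ended with 0.48%, 0.26% and 0.09% (0.08% to 0.10%) in the last 3 draws. Minipig 3 had 0.84% and 0.37% before TBI and 0.15% and 0.13% after it. Every library of minipig 3 lay below every library of minipig 1. Between phases the change did not pass the test, with log2 fold changes of -1.27 ± 0.89 (SE), 0.74 ± 1.13, 1.27 ± 1.36 and -1.52 ± 1.59 for Early, Mid, Late and LR. That fit has no term for the animal. With the minipig as a block, the fold changes were -1.43 ± 0.66, -0.44 ± 0.92, -0.20 ± 1.18 and -2.94 ± 1.34, and miR-9850-5p was lower at Early and LR at an unadjusted p under 0.05. The edgeR adjusted p there was 0.212 and 0.372. On the log2 scale, the mean of each animal's Early libraries lay below its own pre-TBI mean by values of -1.48, -1.66 and -1.48 in minipigs 1, 2 and 3. At LR these differences were -1.14 and -5.67 in minipigs 1 and 2, and at Late they were of opposite sign (1.66 and -3.80).

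**Figure D2:**
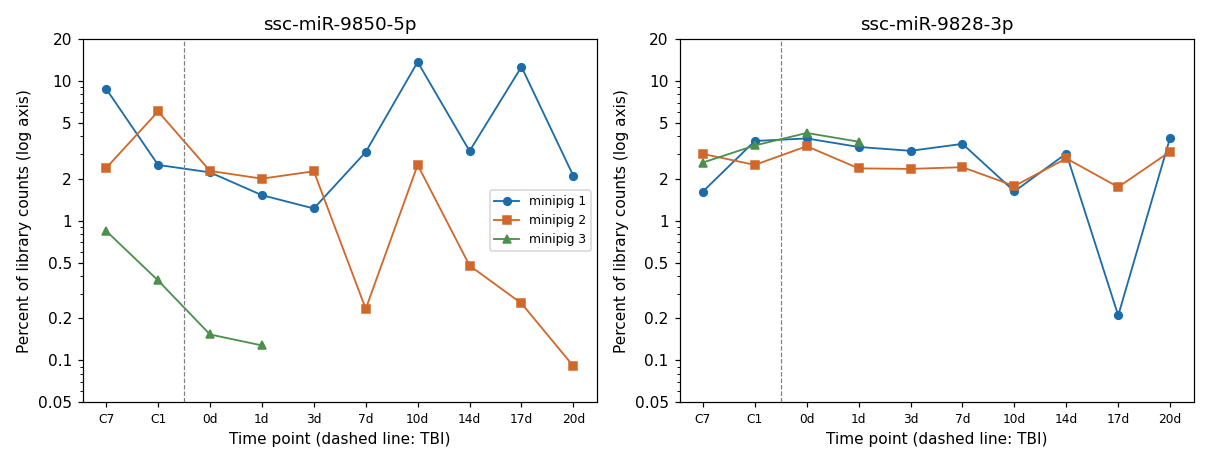
Percent of library counts (log axis) of miR-9850-5p (left) and miR-9828-3p (right) by time point, 1 line per minipig, with TBI at the dashed line. miR-9850-5p spans 0.09% to 13.7% and lies apart by animal, while miR-9828-3p stays between 1.61% and 4.24% except for 0.21% in minipig 1 at 17d.

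miR-9828-3p was second among the members (rank 4 of all rows, mean 28408 CPM), and its levels were alike in the 3 animals. It took 1.61% to 3.93% of the counts of minipig 1 apart from 17d, 1.74% to 3.41% in minipig 2 and 2.60% to 4.24% in minipig 3. At Late it stood at 2897 CPM in minipig 1 and 17307 CPM in minipig 2, both below the lowest pre-TBI level of 18870 CPM. The next members by level were miR-9853-5p (8253 CPM), miR-9819-5p (7646 CPM) and miR-9810-3p (7617 CPM), at ranks 21, 23 and 24 of all rows. miR-9819-5p was highest in minipig 2 at 10d (21957 CPM), while every other library had 3637 to 11763 CPM. miR-9853-5p and miR-9810-3p were lowest in minipig 1 at 17d (1140 and 1662 CPM). In RefSeq the miR-9810 gene lies within the span of MPC2, which encodes a subunit of the mitochondrial pyruvate carrier. The miR-9819 gene lies within the spans of the neighbours MPST and TST, which encode sulfurtransferases.

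Both arms were counted for 12 hairpins, and for 5 of them the same arm was in excess in all 24 libraries. miR-7139-3p held 30786 counts over the libraries against 1760 for miR-7139-5p, a ratio of 17.5, and was higher in 24 of 24 libraries. miR-7138-3p exceeded its 5p arm 4.45 times, also in all 24. The 5p arm was in excess in 24 of 24 libraries for miR-7134 (2.03 times), miR-7142 (2.27 times) and miR-7144 (2.43 times), and in 23 of 24, with 1 tie, for miR-7140 (2.75 times). The 5p arm was higher in 22 of 24 libraries for miR-7136 and miR-7143, and in 1 of 24 for miR-7135 and miR-7137, whose 3p arm was thus higher in the rest. The arms of miR-4334 were near balance, with 14555 and 14364 counts and the 5p arm higher in 11 libraries. The SD of the log2 arm ratio over libraries had a median of 0.45 for these hairpins and 0.84 for the other 66 hairpins with both arms. The difference between these medians was not tested. RefSeq places the miR-7139 gene within the span of E2F7, a transcriptional repressor of the cell cycle, and the miR-7138 gene within that of FGFR4, a fibroblast growth factor receptor.

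The arms of miR-7141 could not be told apart. They held 3132 and 3193 counts, they were equal in 6 libraries, and the largest difference in any library was 12 counts. A chi-square statistic of the arm by library counts was 0.08 per degree of freedom, where independent counting gives about 1, so these rows were read as 1 measurement counted under 2 names. By the SD of the log2 ratio, miR-7139 (0.753) and miR-7138 (0.733) varied more over libraries than miR-7142 (0.619). The chi-square statistic of miR-7142 was 129 per degree of freedom, a measure that grows with the counts, of which miR-7142 had the most. Its log2 ratio of 5p to 3p ran from 0.04 in minipig 2 at C1 to 2.46 in minipig 1 at 20d. At 20d the 5p and 3p arms had 9909 and 1801 CPM in minipig 1 but 8807 and 7002 CPM in minipig 2. The animals were thus alike in one arm and differed in the other.

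**Figure D3:**
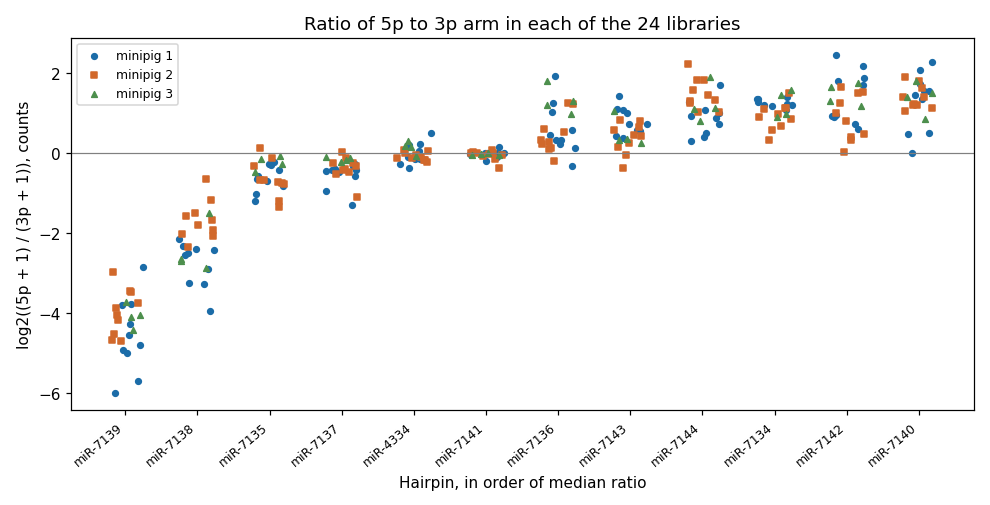
log2 ratio of 5p to 3p counts, each plus 1, for the 12 hairpins with both arms, 1 point per library coloured by minipig. miR-7139 and miR-7138 lie below 0 in all 24 libraries, miR-7141 lies on 0, and miR-7142 spreads from 0.04 to 2.46.

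At Early, the members called were mostly lower, while the fold changes of all members were split, 59 above 0 and 51 below. With edgeR's quasi-likelihood test, 4 members were higher and 21 lower than before TBI at an unadjusted p under 0.05, the study's threshold. Over all 411 rows, 5.11% were higher and 13.6% lower, so that 3.64% and 19.1% of the members stand against these. No member passed an adjusted p under 0.05, nor did any other row (0%), and DESeq2 called 15 members at that threshold. The median log2 fold change was 0.10 for the members and 0.02 for all rows. All 21 lower members were in the block miR-9784 to miR-9862. The number of members lower was steady under library size scaling, with 1 higher and 23 lower, but fell to 7 (2 higher) without minipig 3. Without the 3 libraries below 50000 counts, the members with an adjusted p under 0.05 rose from 0 to 20. The shares of all rows in these repeats are not given, so the counts do not set the members apart from the table.

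miR-9838-5p, whose gene lies within the span of TMEM62, had the largest fall at Early. Before TBI it had a lowest level of 192.003, a median of 1074 and a highest of 2832 CPM, and at Early these were 95.7, 179 and 655 CPM. The log2 fold change was -2.38 ± 0.62 (SE, edgeR adjusted p = 0.0549). The ranges overlap, and 3 of the 6 pre-TBI libraries lay within the Early range, those of minipig 1 at C7 (639 CPM) and C1 (192.003 CPM) and of minipig 2 at C7 (263 CPM). In minipig 3 the level was 2832 and 2085 CPM before TBI and 325 and 321 CPM after it, and minipig 3 showed the largest of the 3 falls, as it did for the next 3 members.

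miR-9787-3p had a pre-TBI range of 493 to 4578 CPM (median 2781) and an Early range of 133.1 to 1089 CPM (median 473). Its log2 fold change was -2.18 ± 0.59. miR-9844-3p ranged from 91.8 to 454 CPM (median 269) before TBI and from 42.1 to 249 CPM (median 89.6) at Early, a change of -1.50 ± 0.40. miR-9827-5p, whose gene lies within the span of the transcription factor gene SOX5, ranged from 392 to 1664 CPM (median 770) before TBI and from 244 to 604 CPM (median 335) at Early, with -1.43 ± 0.35. Each of these 3 had an edgeR adjusted p of 0.0549 and was lower at Early in each of the 3 animals. Each overlapped the pre-TBI range.

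The other 17 lower members had log2 fold changes from -2.01 (miR-9796-3p) to -0.47 (miR-9801-5p). Of the 21, 16 had their highest pre-TBI level in minipig 3 at C7. Their summed level before TBI was 15183 and 7563 CPM in minipig 1, 9975 and 31388 CPM in minipig 2 and 54536 and 39769 CPM in minipig 3, at C7 and C1. At Early it lay between 5413 and 15571 CPM in the 10 libraries. The sum was higher again in minipig 2 at 10d (80966 CPM) and in minipig 1 at 17d (61359 CPM), the other libraries after Early lying at 6648 to 19414 CPM. These sums are a description, because the Early comparison chose the 21 members. Both high libraries after Early were below 50000 counts, whereas those of minipig 3 before TBI held 413030 and 423325. The muscle and heart group of miRNAs had 1519 to 4053 CPM before TBI and 1818 to 2708 CPM at Early, and its part in these falls was not tested. The platelet and myeloid group had 11154 to 22137 CPM before TBI and 11377 to 76414 CPM at Early, highest in minipig 2 at 3d, and its part was not tested either. By mean level miR-191 weighs most in this group.

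**Figure D4:**
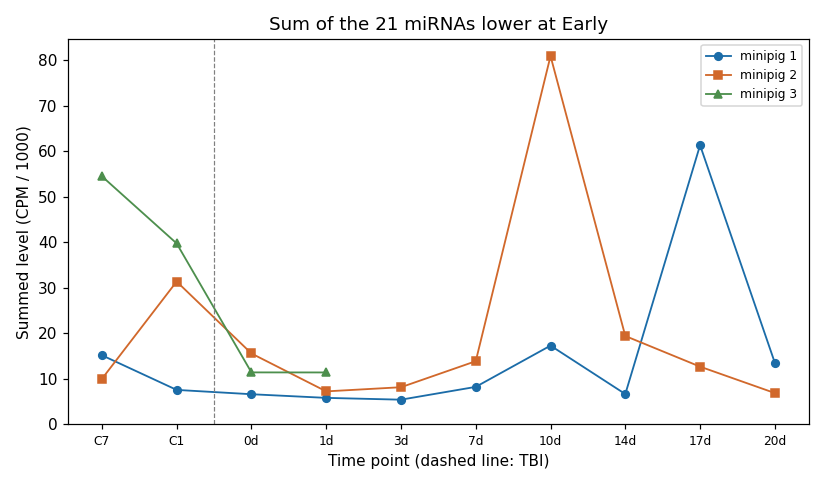
Summed level (CPM divided by 1000) of the 21 miRNAs called lower at Early, by time point, 1 line per minipig. The sum is highest in minipig 2 at 10d (80966 CPM), minipig 1 at 17d (61359 CPM) and minipig 3 at C7 (54536 CPM), and all 10 Early libraries lie at or below 15571 CPM.

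Of the 4 members higher at Early, 3 had small changes, namely miR-9841-3p (log2 fold change 0.62), miR-7134-3p (0.52) and miR-7143-5p (0.42). The remaining one, miR-9806-5p, had 197 to 401 CPM (median 271) before TBI and 270 to 659 CPM (median 462) at Early. Its log2 fold change was 0.70 ± 0.19 (SE, edgeR adjusted p = 0.0549), and it was higher in each of the 3 animals. For miR-7134 and miR-7143 the other arm had log2 fold changes of 0.20 and 0.31 that did not pass the test.

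At Mid, 1 member was called, the lower miR-9855-5p, and 0 were higher. Of all rows, 2.19% were higher and 3.16% lower, and 0% passed an adjusted p under 0.05, with 0 members by edgeR and by DESeq2. miR-9855-5p had 190 and 118 CPM at 10d and 14d in minipig 1 and 140 and 220 CPM in minipig 2, against 147 to 330 CPM before TBI. Of these 4 libraries, 2 lay below the pre-TBI range and 2 within it, and the log2 fold change was -0.52 ± 0.24. With the minipig as a block, 3 members were called and miR-9855-5p was not among them (-0.35). The next members by p, none of them called, were miR-9839-5p (0.89 ± 0.43), miR-9807-5p (-0.82 ± 0.40), miR-9819-5p (0.62 ± 0.35) and miR-7140-3p (0.36 ± 0.21). The value of miR-9819-5p rested on minipig 2, whose 10d library had 21957 CPM, and was -0.43 without that animal and 0.82 with the block, where it was called at the unadjusted threshold. The calls at Mid were 4, 8 and 3 without minipig 1, 2 or 3, and 19 without the 3 libraries below 50000 counts.

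At Late, 13 members were higher and 8 lower, among 15.6% higher and 7.06% lower of all rows. The members' shares were 11.8% and 7.27%. The split rested on the scaling, with 6 higher and 14 lower when only library size was used and 7 and 8 with DESeq2's size factors. The median log2 fold change of all rows was 0.08 with TMM and -0.21 with library size, and that of the members -0.15 and -0.46. An adjusted p under 0.05 was reached by 2 members, beside 4.38% of all rows. With the minipig as a block 1 of them remained, miR-9806-5p (edgeR adjusted p = 0.0320). Neither remained called with library size scaling, DESeq2's size factors, C7 or C1 alone as the baseline, a fit of the 2 groups alone, thinned counts or any 1 animal left out, where edgeR's adjusted p ranged from 0.0666 to 0.407.

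miR-9806-5p stood at 617 CPM in minipig 1 and 581 CPM in minipig 2 at 17d. Both lie above all 6 pre-TBI libraries (197 to 401 CPM). Its log2 fold change was 1.06 ± 0.30 (SE, edgeR adjusted p = 0.0476). miR-9784-5p had 807 and 408 CPM at 17d against 168 to 491 CPM before TBI. Its groups overlap, since minipig 1 had 491 CPM at C7, and its log2 fold change was 1.30 ± 0.37 (edgeR adjusted p = 0.0482). No more than 37 counts per library stand behind these Late levels of either member.

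Among the other members named at Late, miR-9820-5p, whose gene lies within the span of SIL1, had 712 and 1005 CPM at 17d in minipigs 1 and 2, against 273 to 786 CPM before TBI. It rose by the unadjusted test (0.99 ± 0.32, edgeR adjusted p = 0.0881). miR-9851-3p, within the span of HSPA12A, had 807 and 2324 CPM, both below the pre-TBI range of 2506 to 5395 CPM. It fell by the unadjusted test (-1.27 ± 0.42, edgeR adjusted p = 0.0881). miR-9794-3p had 285 and 236 CPM, both below its narrow pre-TBI range of 491 to 695 CPM (-1.21 ± 0.42, edgeR adjusted p = 0.102). The abundant miR-9828-3p and miR-9810-3p also fell by the unadjusted test, by 1.43 and 1.22 on the log2 scale. Compared with each animal's own pre-TBI mean, the log2 difference was -3.32 in minipig 1 and -0.57 in minipig 2 for miR-9828-3p, and -2.04 and -0.33 for miR-9810-3p, so that both falls were larger in the 17d library of minipig 1, which stood apart. miR-9810-3p stood at 4303 CPM in minipig 2 at 17d, within its pre-TBI range of 4078 to 11453 CPM. The Late and pre-TBI libraries did not overlap for 12 members, 10.9% of them, and for 10.9% of all rows. miR-9862-3p had 0 counts in both Late libraries and 1 to 23 counts in each library before TBI. A floor of 3 counts in each Late library corresponds to 94.8 CPM, above its pre-TBI mean of 61.6 CPM, so no fold is given. It is 1 of the 8 members called lower at Late (unadjusted p = 0.0296), and 7 are left without it.

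The platelet and myeloid group (5 rows of miR-142, miR-126 and miR-191, each with counts in every library) summed to 2849 and 6172 CPM in minipigs 1 and 2 at Late. Both lie below its 11154 to 22137 CPM before TBI. By mean level miR-191 weighs most in this sum, with 14088 CPM against 135 to 1028 CPM for each other row. miR-142-3p had 3 counts or fewer in 2 libraries. The liver group had 3419 and 2167 CPM at Late against 3539 to 5146 CPM before TBI. It is the sum of miR-122 and miR-192, whose mean levels were 674 and 4388 CPM, so miR-192 weighs most in it. The part of these groups in the changes at Late was not tested.

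Some calls at Late went with high levels in minipig 1 only. miR-9831-3p, miR-9832-3p, miR-9835-3p and miR-9846-3p, chosen after their values were seen, had log2 fold changes of 1.91, 1.52, 1.71 and 1.74 at Late. miR-9846-3p had 4521, 5157 and 7884 CPM in minipig 1 at C7, 10d and 17d, and 419 to 1330 CPM in the other 21 libraries. miR-9831-3p had 3194, 3279 and 4939 CPM in those 3 libraries and 141 to 567 CPM elsewhere. In minipig 2 at 17d these 2 had 518 and 424 CPM, against 440 to 763 and 223.3 to 391 CPM in the 4 pre-TBI libraries of minipigs 2 and 3. miR-9835-3p and miR-9832-3p were highest in the same 3 libraries, and so was miR-9850-5p among the libraries of the series. These are the 3 smallest libraries of minipig 1 (24341, 59291 and 29159 counts), and the part of depth in the levels was not tested. Without minipig 3, 13 members were called at Late, and the share of all rows in that repeat is not given. Leaving out minipig 1, minipig 2 or the 3 libraries below 50000 counts leaves 1 Late library. The counts of calls in those fits are therefore not read as results about the members.

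**Figure D5:**
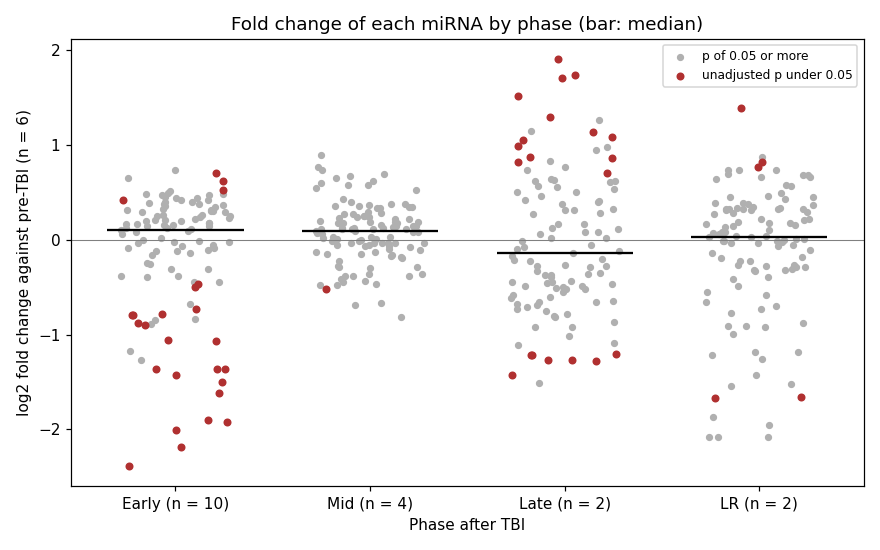
log2 fold change against pre-TBI of each of the 110 miRNAs (points, spread sideways for display) at the 4 phases, with members at an unadjusted p under 0.05 in red and the median as a bar. miR-9862-3p, at 0 counts in both Late libraries, is not drawn at Late, and the called members are 25 at Early, 1 at Mid, 20 of the 21 at Late and 5 at LR.

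At LR, 3 members were higher and 2 lower, among 3.65% higher and 1.95% lower of all rows. No member and 0% of all rows passed an adjusted p under 0.05 with edgeR, and DESeq2 called 0 members there. With the minipig as a block, 10 members were called at the unadjusted threshold, and DESeq2 called 16. Without the 3 libraries below 50000 counts there were 17 calls. The shares of all rows in these repeats are not given, so the counts do not set the members apart from the table. miR-9805-3p, whose gene lies within the span of DSCAM, stood at 3975 CPM in minipig 1 and 1335 CPM in minipig 2, against 590 to 1461 CPM before TBI. Minipig 1 alone was above that range, and the log2 fold change of 1.39 ± 0.48 was 0.45 without minipig 1. miR-9806-5p had 562 and 452 CPM, both above its pre-TBI range (0.82 ± 0.28). miR-9794-3p had 1295 and 729 CPM, also both above it (0.77 ± 0.33). The lower members were miR-9854-5p (245 and 52.7 CPM, -1.67 ± 0.79) and miR-9814-3p (150 and 25.0 CPM, -1.66 ± 0.79), and minipig 2 held the lower level of each. For both, the level in minipig 1 lay within the pre-TBI range. Against each animal's own pre-TBI mean, the log2 differences of miR-9854-5p were 0.325 in minipig 1 and -2.835 in minipig 2. Those of miR-9814-3p were 0.044 and -3.186, so the falls at LR were seen in minipig 2 only. At LR the liver group stood at 10292 and 8400 CPM in minipigs 1 and 2, above all pre-TBI libraries, and the platelet and myeloid group at 11808 and 6224 CPM. Their part in the changes at LR was not tested. The LR and pre-TBI libraries did not overlap for 9 members, 8.18% of them, and for 9.25% of all rows.

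Between Late and LR, 17 members were higher at LR and 14 lower, among 11.7% higher and 20.4% lower of all rows. With library size scaling the split was 18 and 6. One member passed an adjusted p under 0.05, beside 0.73% of all rows. This was miR-9794-3p, with 285 and 236 CPM at Late and 1295 and 729 CPM at LR in minipigs 1 and 2. Only 6 and 15 counts stand behind these Late levels. The Late and LR libraries did not overlap, and the log2 difference was 1.98 (edgeR adjusted p = 0.0492). With the minipig as a block 2 members passed that threshold. No member passed it with library size scaling, a fit of the 2 groups alone, thinned counts or without minipig 1 or 3, where the unadjusted calls were 24, 5, 23, 4 and 27. DESeq2 gave 14 members at the adjusted threshold, and the share of all rows there is not given. The unadjusted calls fell from 31 to 4 without minipig 1 and to 3 without the 3 libraries below 50000 counts. The 17 higher members include miR-9862-3p, at 0 counts at Late, and its fold change is not given.

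Single time points were compared with pre-TBI in the same way. Members called at an unadjusted p under 0.05 are given with the share of members called, then the share of all rows called. They were 13 at 0d (11.8% and 8.52%), 18 at 1d (16.4% and 12.2%), 12 at 3d (10.9% and 8.52%) and 10 at 7d (9.09% and 8.27%). Later draws gave 3 members at 10d (2.73% and 7.3%), 5 at 14d (4.55% and 9%), 21 at 17d (19.1% and 23.8%) and 4 at 20d (3.64% and 7.06%). At 0d, 6 h after TBI, 10 members were higher and 3 lower, but with library size scaling 0 were higher and 16 lower, and the median of all rows moved from -0.09 to -0.40. No direction is therefore given for 0d, and without minipig 3 the calls were 0 at 0d and 4 at 1d. The falls at Early were seen in particular at 1d, with 14 lower and 4 higher, and at 3d, with 11 lower and 1 higher. These counts were 15 and 2, and 11 and 1, with library size scaling. Minipig 3 has no 3d library, but its pre-TBI libraries are in the baseline. They had the highest pre-TBI sums of the 21 members lower at Early. Without minipig 3 the calls at 3d were also fewer. With the block the calls at 14d were 11 and those at 20d 13. miR-9839-5p was called higher at 7d (1.36) and at 14d (1.14). Its levels at those times were 2026 and 1449 CPM in minipig 2 and 676 and 867 CPM in minipig 1, against 405 to 813 CPM before TBI. Between C1 and C7, both before TBI, 0 members were called by edgeR at an unadjusted p under 0.05, beside 0.73% of all rows, and 1 with the block. There were 10 without minipig 2.

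Of the 110 members, 44 were called in at least 1 phase (40% of members, 43.6% of all rows), 7 in at least 2 (6.36% and 7.3%) and 1 in 3 (0.909% and 1.46%). The other 66 were called in none. The one called in 3 was miR-9806-5p, with log2 fold changes of 0.70, 0.23, 1.06 and 0.82 for Early, Mid, Late and LR. Of the 7, miR-9841-3p was called higher at Early (0.62) and lower at Late (-1.28), miR-9843-3p lower at Early (-0.88) and higher at Late (1.09), and miR-9794-3p lower at Late and higher at LR. The other members of the 7 kept one direction in these pooled comparisons. They were miR-9854-5p and miR-9814-3p, lower at Early and LR, and miR-7143-5p, higher at Early and Late. At LR, miR-9854-5p and miR-9814-3p were below the animal's own pre-TBI mean in minipig 2 but not in minipig 1. The phases share their pre-TBI libraries, so these calls are not independent of each other. In the block miR-7134 to miR-7144, 2 rows were called at Early and 2 at Late, all higher, and 0 at Mid and LR. The block miR-4331 to miR-4339 had no call in any of the 4 phases by edgeR at an unadjusted p under 0.05. Over all 411 rows, the shares called were 18.7% (Early), 5.35% (Mid), 22.6% (Late) and 5.6% (LR).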

How the data were processed

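Plasma small RNA of 3 minipigs was sequenced at 10 time points. Per the paper's methods and the submitters' processing notes, the authors made TruSeq small RNA libraries, trimmed reads with cutadapt, aligned them with Bowtie (the notes name Bowtie2 2.2.3.0) to the pig genome (ssc5) and quantified known miRNAs from miRBase. The deposited table holds raw counts per miRNA and library, without normalization. How its 411 rows were chosen is not given in the sources used here, so CPM refer to the table's total, not to the library's full depth.

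Libraries under 1000 counts were left out. edgeR 4.0.16 (R 4.3.3) was used with TMM, a low-count filter (CPM over 0.5 in 3 libraries or more, passed by all 411 rows), 5 phases in 1 quasi-likelihood fit and no animal term. Single time points, and C1 against C7, came from separate fits of the same kind. p-values were adjusted by Benjamini-Hochberg over all 411 rows, and the SE is that of the fitted log2 fold change. Libraries of a phase include repeated draws from the same animals, so the p-values treat related samples as separate. The study took the phases from these same libraries. Design and depth limit Late and LR to 2 libraries each. The fit of Early against pre-TBI was tested on simulated counts with known changes. These counts were independent, with 1 common spread and no animal effect. That test does not cover repeated draws, the unequal mix of animals or the phases with 2 libraries.

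Members named were those past an adjusted p of 0.05, the 5 smallest p per phase and the 5 most abundant. Others were chosen after their values were seen. The rule for members reads names only, but this set of rows and the lists were chosen with earlier results of these data known. Alternatives were DESeq2 1.42.0, other scalings, filters and baselines, 2-group fits, an animal block, left-out animals, thinned counts and left-out small libraries. The same minipig number marks the same animal, so animals pair libraries by design. Deviations from phase means correlated by 0.16 on average between libraries of the same minipig and -0.15 between minipigs. Within minipigs 1, 2 and 3 the averages were 0.22, 0.04 and 0.61, the last from 6 pairs of libraries. In a phase with 2 libraries the deviations are opposite by construction, which lowers the value between minipigs. Shares have 95% Wilson intervals. RefSeq was used for gene names and spans only, since the study's build differs, and no sequence is printed.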

Additional observations from a re-analysis of the deposited data

Results flagged for a closer look

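Among 63 groups of 4 to 10 libraries examined for the 21 named members, 4 held a library far from its nearest neighbour, where chance gives about 5% of groups. miR-9806-5p at Early had its lowest level in minipig 2 at 3d, 8.12 on the log2 CPM scale, with the next library at 8.74. miR-9839-5p at Early had its highest level in minipig 2 at 7d, 10.99 against 9.55 for the next. miR-7140-3p before TBI had its highest level in minipig 1 at C7, 8.24 against 7.43. miR-9784-5p at Early had its highest level in minipig 2 at 7d, 8.44 against 8.03.

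The change of miR-9794-3p from pre-TBI differed between Late and LR by a test of the difference itself, with a log2 difference of 1.98 (edgeR adjusted p = 0.0492). It was lower than pre-TBI at Late and higher at LR in both animals present. Its Late levels rest on 6 and 15 counts in minipigs 1 and 2. No member passed the adjusted threshold in this comparison with library size scaling, a fit of the 2 groups alone, thinned counts or without minipig 1 or 3.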

How the results depend on the processing

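Depth and sample number limit these results, because Late and LR hold 2 libraries each, 3 libraries had under 50000 counts, and leaving out an animal at Late or LR leaves 1 library that is assumed to vary like the other groups. Of the repeats of the 20 named fold changes, 234 kept direction and side of the unadjusted threshold, 34 lost the call, 11 gained it and 1 turned. The fold change of miR-9819-5p at Mid was 0.62 and turned to -0.43 without minipig 2 (1.05 without minipig 1 and 0.95 without minipig 3). The 2 filters on low counts moved none of the counts of members given here by over 1.5 times. All 411 rows passed the filter of the main fit, so the repeat without a filter was the same fit. Its 20 values among the 234 could not differ. The shares of all rows called in these repeats are not given, so the counts below do not compare members with other rows. The cause of the shifts below was not tested, except that fits with fewer libraries also have fewer degrees of freedom.

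Members with an adjusted p under 0.05 at Early numbered 0, and became 4 with library size scaling, 5 with DESeq2's size factors, 15 with DESeq2, 18 in a fit of the 2 groups alone and 20 without the 3 libraries under 50000 counts. At Late they numbered 2, and became 0 with library size scaling, DESeq2's size factors, a fit of the 2 groups, C7 alone, C1 alone and thinned counts. They were 4 with DESeq2 and 1 without the small libraries. Between LR and Late they numbered 1, and became 0 with library size scaling, a fit of the 2 groups and thinned counts, and 14 with DESeq2. At 17d they numbered 1, and 0 with library size scaling.

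At an unadjusted p under 0.05, the 1 member called at Mid became 4 with DESeq2, 3 with C1 alone, 3 with thinned counts and 19 without the small libraries. The 21 at Late became 6 in a fit of the 2 groups, 10 with C7 alone and 9 without the small libraries. The 5 at LR became 16 with DESeq2, 3 in a fit of the 2 groups, 1 with C1 alone, 9 with thinned counts and 17 without the small libraries. The 31 between LR and Late became 5 in a fit of the 2 groups and 3 without the small libraries. Thinning and the removal of small libraries were chosen after the data were seen.

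A fit with the animal as a replicate block pairs the libraries of each minipig. In it the unadjusted calls became 3 at Mid, 10 at LR, 11 at 14d, 13 at 20d and 1 between C1 and C7. Calls at the adjusted threshold became 1 at Late, 2 between LR and Late and 1 at 3d. The block moved no other count by over 1.5 times.

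Leaving out each minipig in turn gave 9 to 29 unadjusted calls at Early, 3 to 8 at Mid, 11 to 36 at Late, 5 to 19 at LR and 4 to 38 between LR and Late. It gave 0 to 4 adjusted calls at Early, 0 to 21 at Late and 0 to 21 between LR and Late. For single time points the unadjusted calls were 0 to 18 at 0d, 4 to 20 at 1d, 2 to 11 at 3d, 2 to 12 at 7d, 5 to 7 at 10d, 2 to 6 at 14d, 11 to 34 at 17d (adjusted 0 to 14) and 3 to 21 at 20d. Between C1 and C7 they were 1 to 10.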
